A study of Mus musculus with 23 samples.

Results

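The question here is whether the response of brown adipose tissue to cold differed in mice that lack the mitochondrial calcium uniporter in brown fat. It is addressed by the genotype by temperature interaction, which subtracts the cold effect in control mice from the cold effect in mice without the uniporter pore in brown fat. All 23 of the 23 RNA-seq samples of the series enter it, and the 14651 genes measured are described by pathway and gene family. The control animals, Ctrl, were Mcu[fl/fl] mice with loxP sites around exon 2 of Mcu and no Cre. The BAT-Mcu-KO animals were Mcu[fl/fl];Ucp1-Cre mice, which carry the same floxed Mcu and a Cre transgene. No mice with the Cre transgene and intact Mcu are in the series. The loss of Mcu and the transgene therefore cannot be told apart in any genotype difference or interaction. Each group was sampled at room temperature, RT, or after 6 h at 4°C, labelled 4C, so that the groups were Ctrl RT (n = 6), Ctrl 4C (n = 5), BAT-Mcu-KO RT (n = 6) and BAT-Mcu-KO 4C (n = 6). All were male C57BL/6 mice of 8 to 12 weeks, and mice in the cold were caged singly, by default without food. The methods do not say whether the RT mice of the RNA-seq were fed or caged singly. A cold effect may therefore also hold a difference in food or caging, which was not tested. In the paper, access to food during the cold suppressed the accumulation of ATF4 protein. The Ucp1 promoter drives Cre, so only Ucp1-expressing cells lose Mcu, whereas the tissue also holds vessels, stroma, immune cells and, in these dissections, varying amounts of muscle. In whole tissue, fewer cells of a type and less RNA per cell cannot be told apart.

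As background, cold makes sympathetic nerves release noradrenaline onto brown adipocytes, and beta-adrenergic cAMP signalling then induces Ppargc1a, Dio2 and Ucp1 and switches the mitochondria to heat production. The uniporter carries calcium into the mitochondrial matrix. A separate programme, the integrated stress response (ISR), runs through phosphorylation of the initiation factor eIF2 and the transcription factor ATF4, and it raises genes for amino acid uptake, amino acid synthesis and tRNA charging.

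Many ATF4 target genes carry an amino acid response element, whose core was searched as TGATGNAA on both strands in the RefSeq promoter windows (GRCm38.p6, 250 bases before to 50 bases after each start). It stood in 2.74% of the 9982 tested genes that had a window. Among the ISR genes with a window it stood in 7 of 15, and among the cytosolic tRNA synthetases in 5 of 16. It stood in 3 of 14 amino acid transporter windows and 2 of 12 of the amino acid synthesis enzymes, but in 0 of 17 of the serine, one-carbon and proline enzymes, Mthfd2 included, while complex I genes with a window held it in 0 of 32. The following windows, each ending upstream of the start that RefSeq annotates, show the element in 3 ISR genes, 1 transaminase gene and 2 tRNA synthetase genes that are described below. Each is written 5′ to 3′ on the strand of the gene, and the capitals mark the element, which reads in reverse complement here.
Atf3 (chr1:191183390-191183489, minus strand): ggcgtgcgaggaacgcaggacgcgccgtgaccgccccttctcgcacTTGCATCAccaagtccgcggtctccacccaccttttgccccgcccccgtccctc
Chac1 (chr2:119351003-119351102, plus strand): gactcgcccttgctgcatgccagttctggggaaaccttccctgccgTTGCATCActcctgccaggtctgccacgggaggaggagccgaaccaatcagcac
Fgf21 (chr7:45615576-45615675, minus strand): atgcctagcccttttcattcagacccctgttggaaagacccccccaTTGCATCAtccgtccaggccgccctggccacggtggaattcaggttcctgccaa
Got1 (chr19:43524654-43524753, minus strand): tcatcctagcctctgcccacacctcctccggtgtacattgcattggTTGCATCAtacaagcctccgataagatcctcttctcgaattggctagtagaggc
Aars (chr8:111033684-111033783, plus strand): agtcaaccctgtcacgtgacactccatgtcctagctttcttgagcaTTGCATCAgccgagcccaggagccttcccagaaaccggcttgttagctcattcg
Tars (chr15:11399659-11399719, minus strand): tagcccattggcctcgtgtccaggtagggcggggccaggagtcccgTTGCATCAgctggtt
A match is a description of these letters only. The cAMP response element TGACGTCA, by comparison, stood in 3.53% of the tested genes' windows and in 1 of the 15 ISR windows, that of Ppp1r15a.

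Depth and tissue makeup differed between mice. Reads assigned to genes ranged from 7129271 to 21006347 per mouse, and brown adipocyte markers were abundant in every sample, with Ucp1 between 50590.2 and 198043 normalized counts (counts divided by the library's DESeq2 size factor). The summed normalized count of 20 skeletal muscle markers ranged from 337 to 57953 and passed 10000 in 8 mice, of which 3 were Ctrl 4C, 3 BAT-Mcu-KO RT, 2 BAT-Mcu-KO 4C and 0 Ctrl RT. The muscle markers accordingly had a median interaction of -1.88, with 0 of 20 above 0. Without those 8 mice, which leaves 2 Ctrl 4C mice, it was 4.90. Red blood cell markers had a median interaction of 0.56 over 6 genes, and macrophage markers of 0.23 over 13 genes, with summed counts of 1283 to 2041 in Ctrl 4C and 1635 to 2177 in BAT-Mcu-KO 4C. Endothelial, fibroblast, mural and white adipocyte markers had medians between -0.08 and 0.13. Schwann and neuronal markers had -0.19 over 6 genes, and lymphocyte markers -0.37 over 2 genes. The part that these cells play in any result below was not tested. Values without the muscle-rich mice are given where they changed a statement. They rest on 2 Ctrl 4C mice and on groups unbalanced in muscle markers in the other direction, so they are not values free of muscle.

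Cold changed about as many genes in either genotype. Neither limma nor edgeR called a gene for a different response, while DESeq2 called 28. On log2(normalized count + 1), limma called 22.3% of genes higher and 23.7% lower after cold in control mice, against 21.4% higher and 21.9% lower in BAT-Mcu-KO (adjusted p under 0.05). Of these, 5092 genes were called in the same direction in both genotypes and 1 in opposite directions. The 2 cold effects share no mice, and their correlation across genes was 0.83, given as a description since genes are not independent replicates. The interaction passed an adjusted p of 0.05 for 0 of 14651 genes (0%), with a smallest adjusted p of 0.70. At an unadjusted p under 0.05 there were 423 genes with a positive interaction (2.89%) and 455 with a negative one (3.11%), and 52% of all genes lay above 0. With each library scaled to its 75th percentile, the split was 662 positive and 315 negative. A positive value means that cold left the gene higher in BAT-Mcu-KO mice, relative to RT, than it did in controls. edgeR's quasi-likelihood test on the recovered reads also called 0 genes, with 1051 at an unadjusted p under 0.05. DESeq2's Wald test called 28 of them, with 1069 at an unadjusted p under 0.05. Of those 28 genes, 23 had a negative interaction, and 17 were at least 2-fold higher in muscle-rich than in other mice of the same group, 13 of them at least 4-fold. The median SE of the interaction was 0.27, so that a lone gene of median SE would have needed a log2 difference of 1.58 to be called, and one of median SE among genes with a mean count of 50 or more would have needed 1.18.

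Across gene families the interaction was small. The marker lists of other cell types, given above and with medians from -1.88 to 0.56, are left out of the following ranks. Of the 63 remaining lists with at least 5 genes, 39 had a median within 0.1 of 0 and 56 within 0.2 (all genes: median 0.01, quartiles -0.19 and 0.20), with 33 medians above 0 and 30 below. Among these 63, the 6 lowest medians belonged to potassium channels, EGF family ligands and ERBB receptors, plasma membrane amino acid transporters, ISR transcription factors and feedback genes, transsulfuration and amino acid synthesis enzymes, and ER and plasma membrane calcium genes. The 6 highest belonged to NR4A and immediate early genes, acyl-CoA thioesterases and the nuclear-encoded subunits of complex IV, complex I, complexes II and III with cytochrome c, and ATP synthase. The counts per list below stand beside 2.89% of all genes positive and 3.11% negative at an unadjusted p under 0.05. Cold called 22.3% of all genes higher and 23.7% lower in controls, and 21.4% and 21.9% in BAT-Mcu-KO. Genes of a list are not independent of each other.

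**Figure D1:**
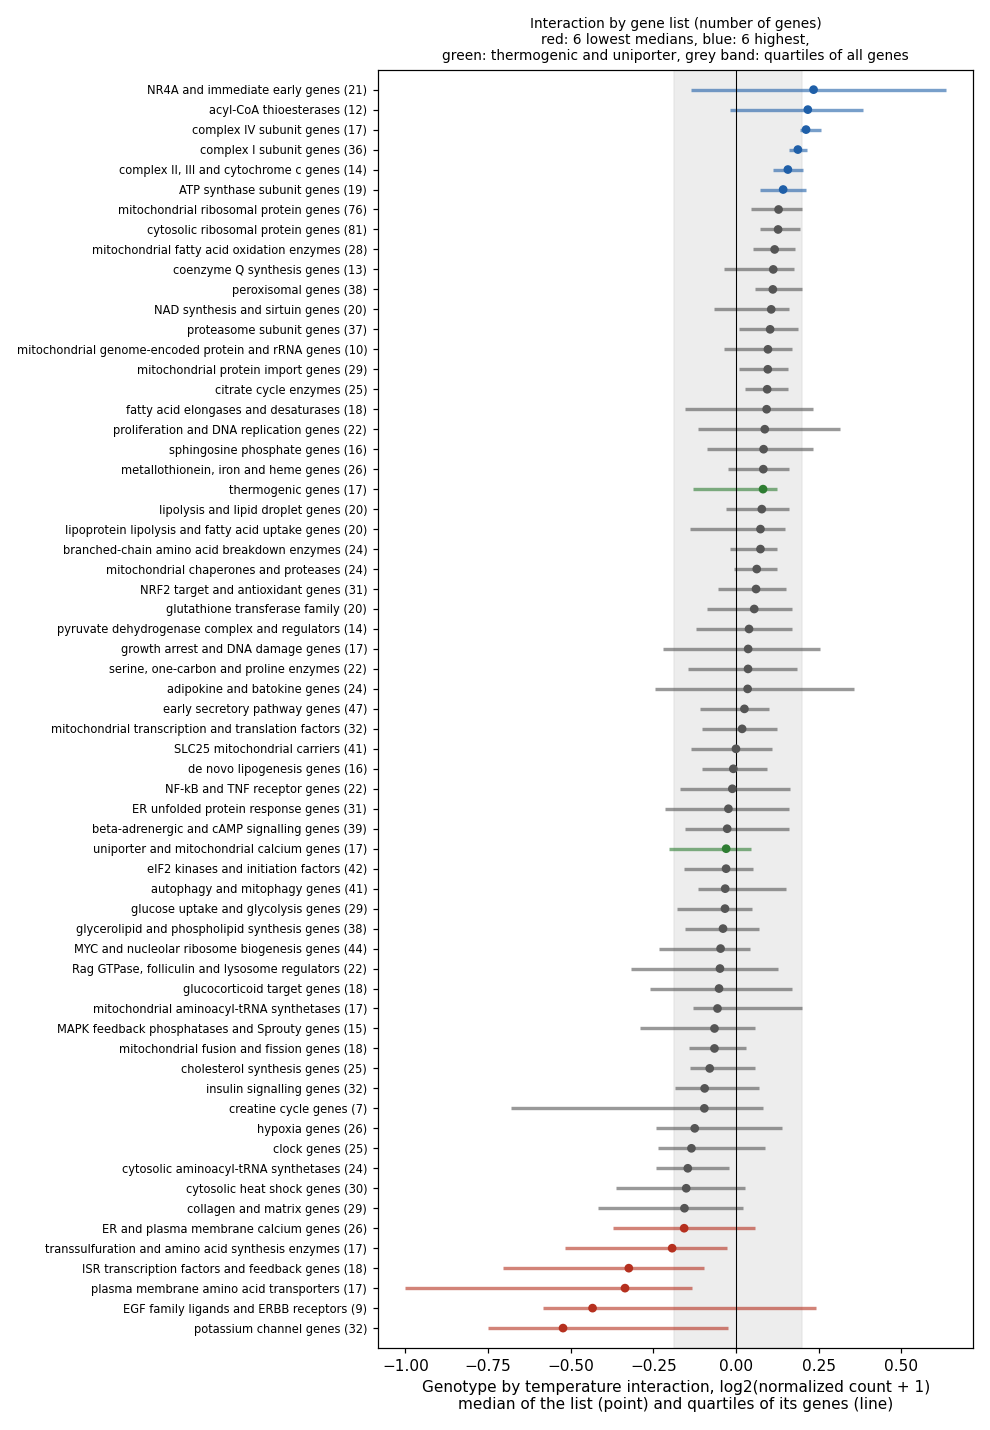
Median interaction of each of the 63 gene lists that are not cell type markers (points, log2 units on the x axis, list names with gene numbers on the y axis) with the quartiles of its genes (lines), over the quartiles of all genes (grey band). Red marks the 6 lowest medians, from -0.52 to -0.16, blue the 6 highest, from 0.14 to 0.23, and green the thermogenic and uniporter lists.

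The ISR list held the most genes of any list of 5 or more with a negative interaction at an unadjusted p under 0.05. They were 6 of 18 (all genes: 3.11%) against 0 positive (all genes: 2.89%), and 3 of the 18 lay above 0. The list's median cold effect was 1.25 on the log2 scale in controls against 0.72 in BAT-Mcu-KO, with a median interaction of -0.32. Cold raised 12 and lowered 2 of these genes in controls, and raised 11 and lowered 2 in BAT-Mcu-KO mice. Cold thus changed most of these genes in both genotypes, and 0 of the 18 had an interaction past an adjusted p of 0.05. The list was also scored in each mouse, as the mean log2 deviation from the 23-mouse mean. Scores were 0.71 to 0.91 in Ctrl 4C and 0.04 to 0.60 in BAT-Mcu-KO 4C. At RT they were -0.67 to -0.43 in Ctrl and -0.71 to -0.27 in BAT-Mcu-KO. These scores carry no test. The share of all lists whose ranges do not overlap is not given, so a gap between ranges is no result by itself. Without the 8 muscle-rich mice the median interaction was -0.27, with 5 of 18 above 0 and 1 gene at an unadjusted p under 0.05. In muscle-rich mice of the same group, 0 of the 18 genes were 2-fold higher, though Chac1 was close to that limit. The 6 negative genes differed there by 0.97 (Chac1), 0.55 (Fgf21), 0.13 (Trib3), 0.12 (Cars), 0.07 (Atf4) and -0.13 (Atf3) on the log2 scale.

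Atf4, the factor at the centre of the programme (chr15:80255184-80257541), had normalized counts of 2977, 3015, 2769, 3071 and 3128 in Ctrl 4C. In BAT-Mcu-KO 4C its counts were 1417 at the lowest, 2069 at the median and 2218 at the highest. At RT they were 536, 619.9 and 695 in Ctrl and 455, 512 and 585 in BAT-Mcu-KO, lowest, median and highest. The 2 cold groups were thus apart, each far above its RT group. Cold raised Atf4 by 2.30 in controls against 1.88 in BAT-Mcu-KO (adjusted p = 3.9e-14 and 5.9e-13, limma), and the interaction was -0.41 (SE 0.15, unadjusted p = 0.011, adjusted p = 0.78). Without the muscle-rich mice it was -0.27.

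Atf3, a repressor induced by ATF4, had the largest cold effects of these factors. Its counts were 771, 455, 342, 334 and 356 in Ctrl 4C, and 158, 221 and 297 (lowest, median, highest) in BAT-Mcu-KO 4C. Both RT groups stayed at or below 40.4, with medians of 9.56 in Ctrl and 14.3 in BAT-Mcu-KO. The interaction of Atf3 was -1.71 (SE 0.51, unadjusted p = 0.0023, adjusted p = 0.71), from cold effects of 5.49 and 3.78. Here too the 2 cold groups did not overlap. Atf3, like other genes below, was picked by its interaction p from these same values. A lack of overlap in such genes is therefore no separate support. Its share over all genes is not given, so in Atf4 too it is no result by itself.

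Fgf21, a hormone that brown fat secretes under stress, stood at 60.7, 117, 94.6, 66.8 and 205 in Ctrl 4C and at 3.29, 18.7 and 68.4 (lowest, median, highest) in BAT-Mcu-KO 4C. At RT it did not pass 8.06 in any mouse. The cold groups overlapped in a single BAT-Mcu-KO mouse, and the interaction was -2.55 (SE 0.86, unadjusted p = 0.0066, adjusted p = 0.78). Without the 8 muscle-rich mice it was -1.42. Because several RT mice had 0 reads, the size of the difference depends on the pseudocount of 1.

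Chac1, which breaks down glutathione, was among the 5 ISR genes that were not called for cold in BAT-Mcu-KO mice. Cold raised it by 1.81 in controls (adjusted p = 0.0015, limma), while the cold effect in BAT-Mcu-KO was -0.07 (adjusted p = 0.91). Its counts were 210.4, 182, 100.8, 112 and 253 in Ctrl 4C and 24.8, 80.4 and 144 (lowest, median, highest) in BAT-Mcu-KO 4C, and those of BAT-Mcu-KO RT already ran from 21.4 to 141. The groups overlapped, and the interaction was -1.88 (SE 0.61, unadjusted p = 0.0048, adjusted p = 0.78). Within groups Chac1 was 0.97 higher on the log2 scale in muscle-rich mice, and its interaction without them was -1.30.

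The other 2 ISR genes with an unadjusted p under 0.05, named after their values were seen, were Trib3, a feedback inhibitor of the pathway, and Cars, the cysteinyl-tRNA synthetase. Trib3 had 287, 287, 274, 281 and 437 counts in Ctrl 4C against 120.1 to 262 in BAT-Mcu-KO 4C, with no overlap. Its interaction was -0.76 and that of Cars -0.54 (adjusted p = 0.78 for both). The feedback phosphatase subunit Ppp1r15a and the stress-induced Sesn2, also named after their values were seen, had 0.28 and 0.33 (adjusted p = 0.93 and 0.88), with cold effects of at least 1.48 in either genotype. Without the muscle-rich mice they had 0.042 and -0.30.

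**Figure D2:**
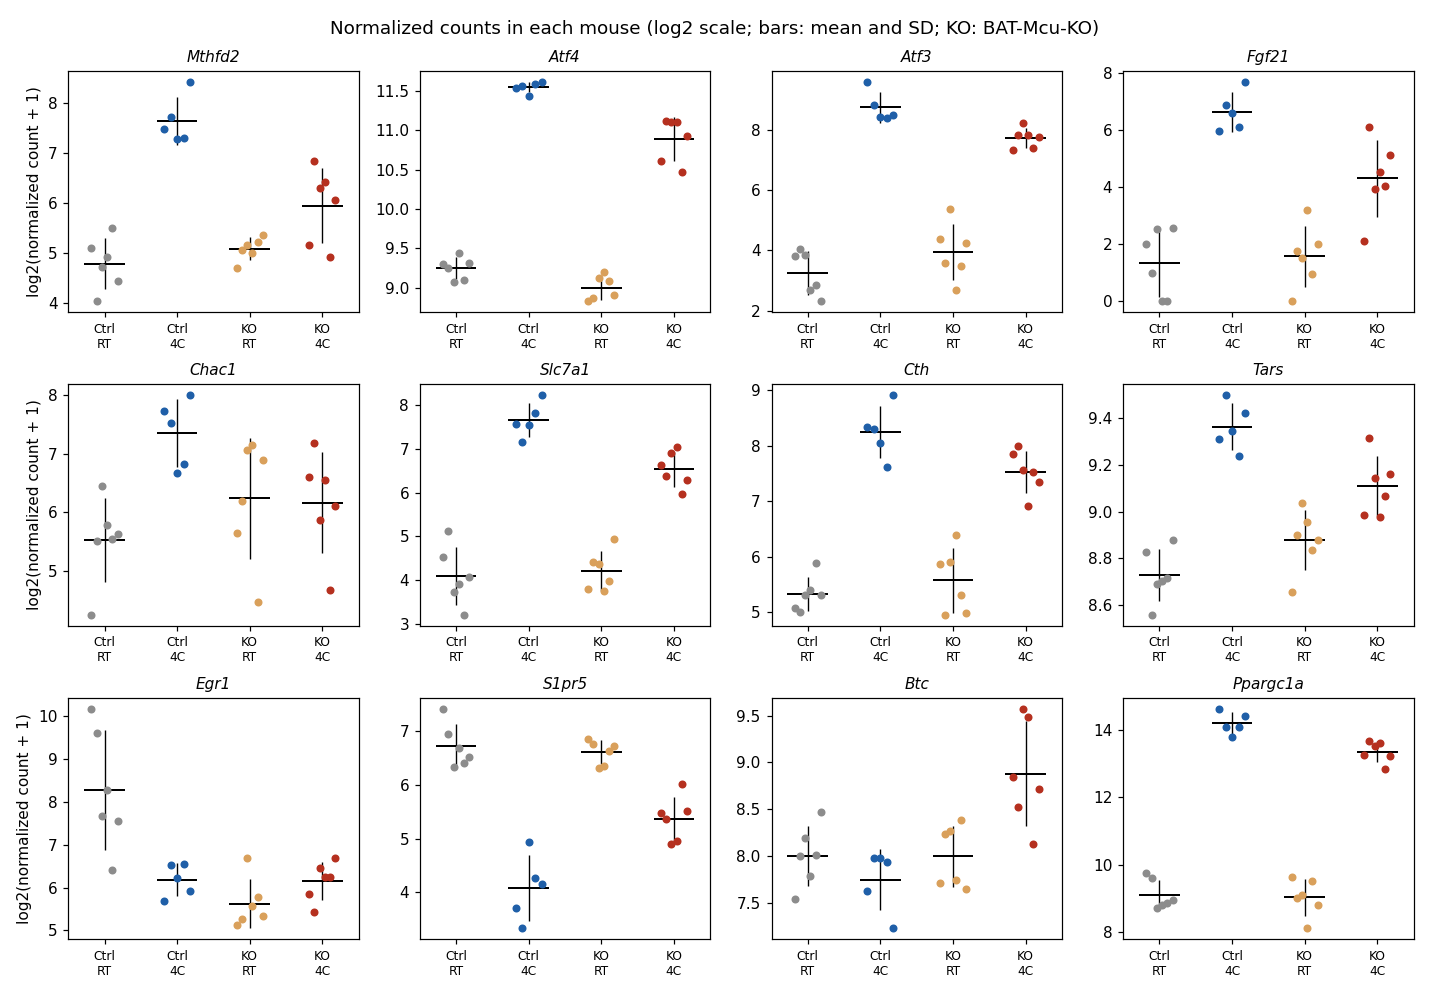
Normalized counts of 12 genes in each mouse (y axis, log2(normalized count + 1); x axis, the 4 groups; points are mice, bars the mean and SD). For Atf4 and Atf3 the points of Ctrl 4C lie above all points of BAT-Mcu-KO 4C, for S1pr5 they lie below all but the lowest BAT-Mcu-KO 4C mouse (28.8), and for Ppargc1a both cold groups sit far above RT.

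Plasma membrane amino acid transporters, which import the substrates of this programme, had a median interaction of -0.34 over 17 genes, with 3 above 0. At an unadjusted p under 0.05, 4 were negative and 0 positive. The median cold effect was 1.01 in controls and 0.26 in BAT-Mcu-KO mice. Cold raised 9 and lowered 2 in controls, and raised 7 and lowered 3 in BAT-Mcu-KO mice. Of the 17, 2 were at least 2-fold higher in muscle-rich mice of the same group, and the other 15 had a median of -0.20. As a score per mouse, the list ran from 0.22 to 0.77 in Ctrl 4C and from 0.07 to 0.77 in BAT-Mcu-KO 4C, which overlapped. At RT the scores ran from -0.72 to -0.48 in Ctrl and from -0.47 to 0.23 in BAT-Mcu-KO.

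Slc7a1, the cationic amino acid transporter CAT1, had counts of 188, 141, 187, 223 and 298 in Ctrl 4C. BAT-Mcu-KO 4C mice had 62.0, 90.2 and 129.9 (lowest, median, highest), below every Ctrl 4C mouse. RT medians were 15.0 in Ctrl and 17.3 in BAT-Mcu-KO, so that cold raised the gene by 3.56 and 2.32, with an interaction of -1.24 (SE 0.39, unadjusted p = 0.0041, adjusted p = 0.76). Slc38a2, the neutral amino acid transporter SNAT2, ran from 1597 to 2085 in Ctrl 4C and from 1177 to 1580.2 in BAT-Mcu-KO 4C, again without overlap, with an interaction of -0.53 (SE 0.20, adjusted p = 0.78). Slc7a6, a light chain of the heterodimeric transporters, had -0.34 (SE 0.15, adjusted p = 0.81). The fourth, Slc38a3, named after its values were seen, had a fitted value of -3.26, but it was at 0 counts in 2 of the 5 Ctrl 4C mice and 3.53 higher on the log2 scale in muscle-rich mice, and its interaction turned to 1.38 without them.

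Transsulfuration and amino acid synthesis enzymes had a median of -0.19 over 17 genes, 4 above 0, with 2 negative and 0 positive at an unadjusted p under 0.05. Cold raised 9 of them in controls and 7 in BAT-Mcu-KO mice, and lowered 2 in each. The median ran from -0.32 without Ctrl 4C mouse 1 to -0.12 without Ctrl 4C mouse 4. The scores of the 2 cold groups overlapped, at 0.22 to 0.40 in Ctrl and -0.01 to 0.49 in BAT-Mcu-KO. Cth, which makes cysteine from cystathionine, had 322, 316, 264, 196 and 481 counts in Ctrl 4C and 119.8, 186 and 253 (lowest, median, highest) in BAT-Mcu-KO 4C. The groups overlapped, since 1 control mouse lay within the BAT-Mcu-KO range, and the interaction was -0.95 (SE 0.35, unadjusted p = 0.010, adjusted p = 0.78). Gpt2, the mitochondrial alanine transaminase, was raised by cold in controls by 0.83 (adjusted p = 0.0020, limma) with a cold effect of 0.12 in BAT-Mcu-KO (adjusted p = 0.67), and its interaction was -0.71 (adjusted p = 0.79). Its genotypes differed more at RT than in the cold, with BAT-Mcu-KO minus Ctrl at 0.59 and -0.12. Without BAT-Mcu-KO RT mouse 4 the interaction of Gpt2 was -0.53. Asns, asparagine synthetase, had -0.27 (adjusted p = 0.84), and -0.16 without the muscle-rich mice. Got1, the cytosolic aspartate transaminase with the element shown above, was named after its values were seen and had cold effects of 3.01 and 2.70, with an interaction of -0.31 (adjusted p = 0.89) that was 0.26 without the muscle-rich mice.

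Cytosolic aminoacyl-tRNA synthetases charge tRNAs for translation. Their median interaction was -0.15, with 5 of 24 above 0, 5 negative and 0 positive at an unadjusted p under 0.05. Cold raised 15 and lowered 0 in controls, and raised 15 and lowered 3 in BAT-Mcu-KO, with a median of 0.49 in controls and 0.38 in BAT-Mcu-KO mice. The score per mouse ran from 0.26 to 0.39 in Ctrl 4C and from 0.06 to 0.28 in BAT-Mcu-KO 4C, overlapping. The 5 genes, named after their values were seen, were Tars (-0.40), Cars (-0.54), Vars (-0.52), Nars (-0.26) and Eprs (-0.21). Aars, alanyl-tRNA synthetase, likewise chosen, had -0.21 (adjusted p = 0.84). Tars, threonyl-tRNA synthetase, had 635, 722, 649.7, 603 and 686 counts in Ctrl 4C and 503 to 637 in BAT-Mcu-KO 4C. The mitochondrial synthetases had a median of -0.06 over 17 genes, and cold raised 2 and lowered 8 of them in controls, and raised 2 and lowered 5 in BAT-Mcu-KO.

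**Figure D3:**
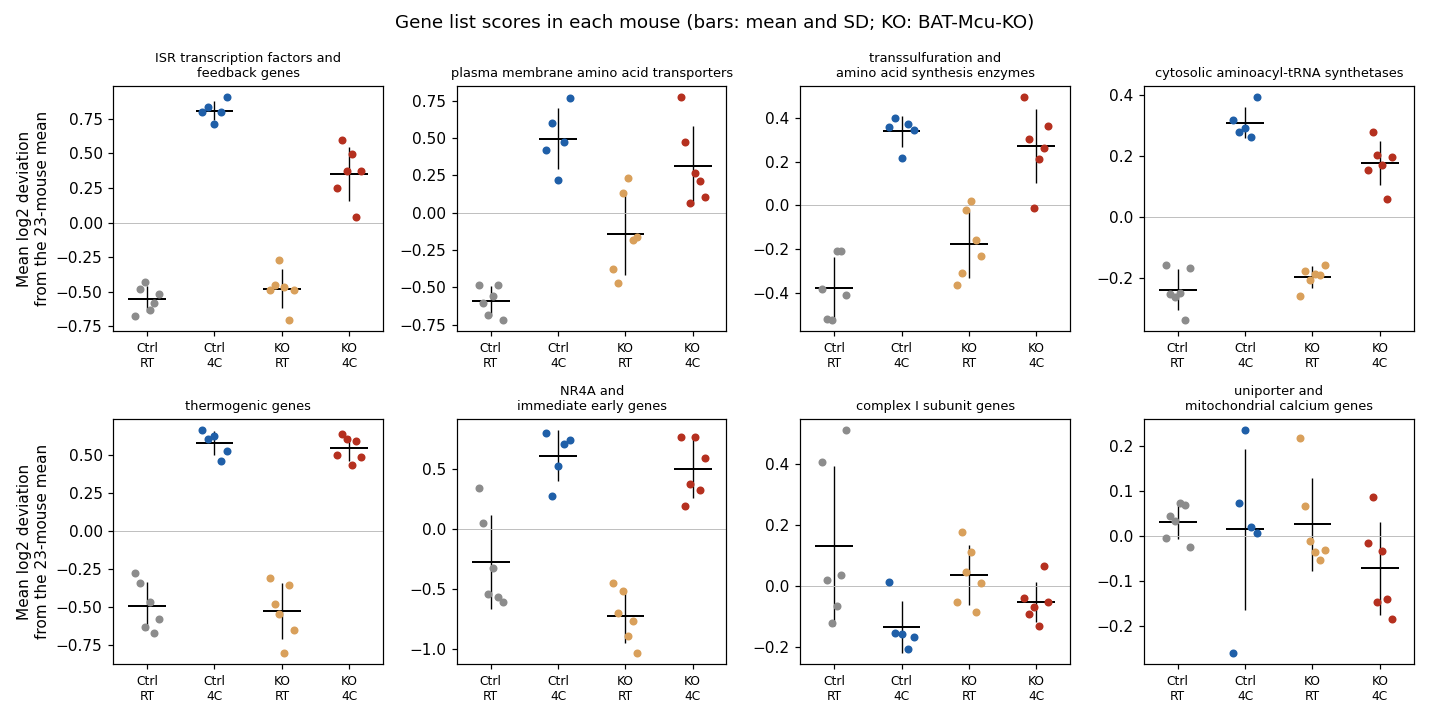
Score of 8 gene lists in each mouse (y axis, mean log2 deviation from the 23-mouse mean; x axis, the 4 groups; points are mice, bars the mean and SD). The ISR scores in the cold are 0.71 to 0.91 in Ctrl and 0.04 to 0.60 in BAT-Mcu-KO. The thermogenic scores coincide in the cold at 0.46 to 0.66 and 0.43 to 0.64, and 2 Ctrl RT mice stand above the rest for complex I.

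Mthfd2 had the smallest p of any gene. It encodes a mitochondrial one-carbon enzyme that ATF4 induces (chr6:83305691-83325908), and it overlaps Gm43890, from which unstranded reads cannot be told apart. Its counts were 178, 209, 156, 157 and 344 in Ctrl 4C and 29.4, 72.1 and 114 (lowest, median, highest) in BAT-Mcu-KO 4C. RT mice had 15.5 to 44.5 in Ctrl and 25.03 to 40.5 in BAT-Mcu-KO. All Ctrl 4C mice thus lay above all others, in a gene picked for its p from these same values. Cold raised Mthfd2 by 2.85 in controls and 0.87 in BAT-Mcu-KO mice (adjusted p = 2.1e-08 and 0.015, limma). The interaction was -1.99 (95% interval -2.83 to -1.14, unadjusted p = 5.6e-05, adjusted p = 0.70), and it lay between -2.16 and -1.78 when each mouse was left out in turn. DESeq2 gave an adjusted p of 0.016, and over all alternatives the adjusted p ran from 0.016 to 1.00. The rest of the serine, one-carbon and proline list did not share this value, since its median was 0.04 with 11 of 22 above 0. Psat1, a serine synthesis enzyme named after its value was seen, was the only other member with an unadjusted p under 0.05 (-0.95, adjusted p = 0.80).

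Cytosolic heat shock genes had a median interaction of -0.15 over 30 genes, with 5 negative and 0 positive at an unadjusted p under 0.05. Cold raised 20 of them in controls and 19 in BAT-Mcu-KO mice. Of the 30, 3 were at least 2-fold higher in muscle-rich mice, and the others had a median of -0.07.

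The thermogenic programme itself, the best known response of this tissue to cold, differed little. The 17 genes had a median interaction of 0.08, 11 above 0, with 1 negative and 0 positive at an unadjusted p under 0.05. The median was 0.020 without Ctrl 4C mouse 4 and 0.14 without BAT-Mcu-KO RT mouse 1, and it was -0.088 with 5 of 17 above 0 without the muscle-rich mice. Cold raised 8 in each genotype. Ucp1, the uncoupling protein, had 179020.0, 147868, 160203, 140888 and 198043 counts in Ctrl 4C and 145145, 156459 and 169144 (lowest, median, highest) in BAT-Mcu-KO 4C, which overlapped. Its interaction was 0.11, with a 95% interval of -0.19 to 0.40, and differences within that interval remain compatible with these values. Dio2, which activates thyroid hormone, had -0.23 (95% interval -1.20 to 0.73), with -0.85 without the muscle-rich mice and 0.068 without BAT-Mcu-KO RT mouse 1. Ppargc1a, the coactivator of mitochondrial biogenesis, was the negative gene. It had 25446, 17496, 14141, 17609.9 and 21818 counts in Ctrl 4C against 7278, 10765 and 13022 (lowest, median, highest) in BAT-Mcu-KO 4C, without overlap, and RT medians of 476 and 533. Its interaction was -0.77 (SE 0.31, unadjusted p = 0.021, adjusted p = 0.79), and -1.19 without the muscle-rich mice. Cidea and Kcnk3 had 0.23 and -0.17 (adjusted p = 0.85 and 0.87). The beta-adrenergic and cAMP list upstream of these genes had a median of -0.03 over 39 genes, with 0 at an unadjusted p under 0.05.

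Uniporter and mitochondrial calcium genes had a median of -0.03 over 17 genes, with 0 at an unadjusted p under 0.05. The median ran from -0.11 without BAT-Mcu-KO 4C mouse 4 to 0.0010 without Ctrl RT mouse 5. Mcu had medians of 107 in Ctrl RT and 38.1 in BAT-Mcu-KO RT, and the highest BAT-Mcu-KO mouse (42.4) lay below the lowest Ctrl mouse (70.8) at either temperature. Its interaction was 0.04 (95% interval -0.62 to 0.70) and its cold effects were -0.05 in controls and -0.00 in BAT-Mcu-KO. The mitochondrial channels Vdac1 and Vdac3 had -0.25 and -0.20, and the ion exchanger Letm1 had -0.50 (SE 0.39), with counts from 2785 to 6872 in Ctrl 4C alone. Elmod2 and Tbc1d9 are neighbours of the endogenous Ucp1 gene on chromosome 8. The paper proposes that both are likely overexpressed because the Ucp1-Cre transgene holds them. At RT, BAT-Mcu-KO minus Ctrl was 1.17 for Elmod2 and 1.24 for Tbc1d9. Elmod2, Tbc1d9 and the glutathione transferase gene Gsta3 had interactions of 0.04, -0.31 and -0.28 (adjusted p = 0.99, 0.91 and 0.93, limma). Gsta3 was at -0.010 without BAT-Mcu-KO RT mouse 4 and Tbc1d9 at -0.15 without Ctrl 4C mouse 1, and without the muscle-rich mice Elmod2, Tbc1d9 and Gsta3 had -0.70, -0.69 and -0.028.

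**Figure D4:**
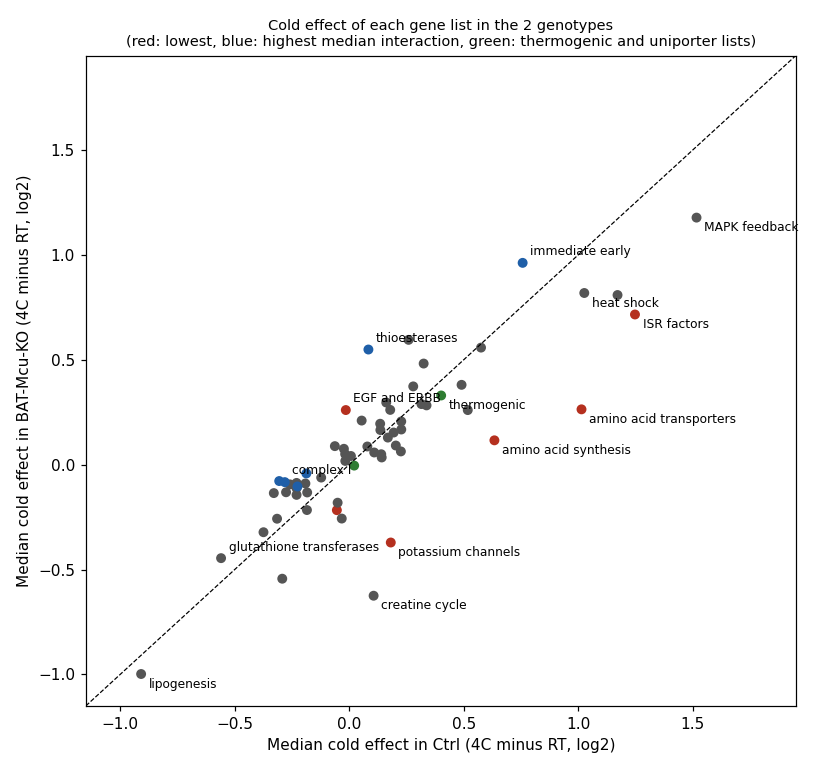
Median cold effect of each of the 63 gene lists in Ctrl (x axis) and BAT-Mcu-KO mice (y axis), both 4C minus RT in log2 units, with the line of equal effects dashed. The ISR list lies at 1.25 and 0.72 and the amino acid transporters at 1.01 and 0.26, below the line, while the thermogenic list lies close to it at 0.40 and 0.33.

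Among calcium genes outside mitochondria, the median was -0.16 over 26 genes, with 9 above 0, 4 negative and 1 positive at an unadjusted p under 0.05. Rcan1 and Rcan2, regulators of the phosphatase calcineurin, and Ppp3ca, its catalytic subunit, had the 3 smallest p. Rcan1 had 285, 246, 108, 161 and 298 counts in Ctrl 4C and 96.6, 126 and 154 (lowest, median, highest) in BAT-Mcu-KO 4C. It was raised by cold in controls by 1.07 (adjusted p = 0.0014, limma), with 0.12 in BAT-Mcu-KO mice (adjusted p = 0.72) and an interaction of -0.94 (adjusted p = 0.78). Rcan2 had -1.30 and was 0.93 higher on the log2 scale in muscle-rich mice. Without the muscle-rich mice the interactions were -0.28 for Rcan1, -0.50 for Rcan2 and -0.14 for Ppp3ca. Ppp3ca was lowered by cold in both genotypes, with log2 changes of -0.34 and -0.64, and an interaction of -0.30 (adjusted p = 0.79). The kinase Camk2b (-0.88) and the release channel Ryr2 (1.34), named after their values were seen, completed the 5, with -0.46 and 0.84 without the muscle-rich mice. The list median was -0.05 without the muscle-rich mice and -0.10 without Ctrl RT mouse 6.

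Potassium channels, which set membrane potential, had the lowest median of the 63 lists, -0.52 over 32 genes, with 7 above 0, 2 negative and 1 positive at an unadjusted p under 0.05. Kcnma1, the pore of the calcium-activated BK channel, had 2.02, 15.2, 1.24, 7.35 and 13.6 counts in Ctrl 4C and no more than 3.87 in BAT-Mcu-KO 4C, with an interaction of -2.43. Its subunit Kcnmb1 had 2.27, in the other direction, and the inward rectifier Kcnj2 had -3.26 (adjusted p = 0.78, 0.78 and 0.80). Kcnma1 was 1.48 and Kcnj2 2.24 higher on the log2 scale in muscle-rich mice, and without those mice they had -0.35 and -0.77. The median was -0.31 without BAT-Mcu-KO 4C mouse 3, -0.28 with a pseudocount of 10 and -0.27 with the muscle marker sum as a covariate. The 27 channels that were less than 2-fold higher in muscle-rich mice had a median of -0.17.

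EGF family ligands and ERBB receptors, which signal through tyrosine kinases, had a median of -0.43 over only 9 genes and a mean of -0.09. Without Ctrl RT mouse 2 the median was -0.24. Btc, the ligand betacellulin, had the largest positive value. Its counts were 196, 250.4, 251, 243 and 149 in Ctrl 4C and 279.8, 438 and 761 (lowest, median, highest) in BAT-Mcu-KO 4C, with RT medians of 255 and 257. The BAT-Mcu-KO 4C mice thus lay above all Ctrl 4C mice. Cold raised Btc in BAT-Mcu-KO by 0.88 (adjusted p = 0.0013, limma) with -0.25 in controls (adjusted p = 0.37), and the interaction was 1.13 (SE 0.30, unadjusted p = 0.000955, adjusted p = 0.70). DESeq2 gave an adjusted p of 0.048, and over all alternatives it ran from 0.048 to 1.00. The receptor Erbb3 had -0.58 and the brown fat secreted ligand Nrg4 had 0.20 (adjusted p = 0.84 for both), with -0.88 and 0.10 without the muscle-rich mice. For Erbb3, BAT-Mcu-KO minus Ctrl was 0.55 at RT and -0.03 at 4C.

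NR4A and immediate early genes, transcription factors that respond within minutes to nerve and growth factor signals, had the highest median of the 63 lists, 0.23 over 21 genes, with 13 above 0 and 3 positive against 0 negative at an unadjusted p under 0.05. The median was -0.05 without the muscle-rich mice and 0.04 without Ctrl 4C mouse 3. Egr1 had the largest value. BAT-Mcu-KO minus Ctrl was -2.65 at RT and -0.03 at 4C, and the genotypes overlapped at both temperatures. Counts in Ctrl RT were 83.9, 254 and 1148 (lowest, median, highest) and in BAT-Mcu-KO RT 33.7, 43.0 and 102. In Ctrl 4C they were 50.6, 91.1, 73.4, 93.3 and 59.3, and in BAT-Mcu-KO 4C 42.1, 74.7 and 102. The interaction of Egr1 was 2.62 (SE 0.61, unadjusted p = 0.00023, adjusted p = 0.70), and 2.24 to 2.99 with each mouse left out. DESeq2 gave an adjusted p of 0.016, within a range of 0.016 to 1.00 over all alternatives. Junb and Ier3 had 0.90 and 0.60 (adjusted p = 0.80 and 0.83). Nr4a1 and Nr4a3, orphan receptors named after their values were seen, were raised by cold in both genotypes by 3.69 to 5.42 and had -0.57 and 0.69 (adjusted p = 0.91 for both). Without the muscle-rich mice they had -1.34 and -0.51. Nr4a1 was at -0.27 without BAT-Mcu-KO RT mouse 2, and Nr4a3 at 0.27 without Ctrl RT mouse 1.

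Acyl-CoA thioesterases release free fatty acids from coenzyme A. Their median was 0.22 over 12 genes, with 9 above 0 and 2 positive against 0 negative at an unadjusted p under 0.05, and -0.08 without the muscle-rich mice. Acot1 was raised by cold in BAT-Mcu-KO by 0.70 (adjusted p = 0.014, limma), with -0.01 in controls (adjusted p = 0.98). Its 2 cold groups overlapped, at 215 to 437 in Ctrl and 284 to 345 in BAT-Mcu-KO. BAT-Mcu-KO minus Ctrl was -0.66 at RT and 0.05 at 4C. The interaction was 0.71 for Acot1, 0.28 for Them4 and 1.34 for Acot12 (adjusted p = 0.81, 0.83 and 0.84), with 0.43, 0.17 and -0.12 without the muscle-rich mice and 0.81 for Acot12 without BAT-Mcu-KO RT mouse 4.

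Most subunit genes of the respiratory chain had small positive values. All 36 nuclear-encoded complex I genes lay above 0, with a median of 0.19 and 1 at an unadjusted p under 0.05, and so did 14 of 14 genes of complexes II and III with cytochrome c (median 0.16), 15 of 17 of complex IV (0.21) and 17 of 19 of ATP synthase (0.14). Cold lowered 18 complex I genes in controls and 2 in BAT-Mcu-KO mice, and raised 0 in either (all genes: 23.7% and 21.9% lowered). For complex IV, it lowered 10 in controls and 1 in BAT-Mcu-KO mice. Ndufb5, an accessory subunit and the gene with the smallest p, had 4365, 4270.5, 4047, 4231 and 4393 counts in Ctrl 4C against 4608, 4674 and 4912 (lowest, median, highest) in BAT-Mcu-KO 4C, and its interaction was 0.25 (SE 0.11, adjusted p = 0.80). Ndufc2 and Ndufs8 had 0.24 and 0.21, Cox5a, Cox7a2 and Cox5b had 0.19, 0.24 and 0.26, Sdhd, Uqcrb and Uqcrh had 0.23, 0.29 and 0.24, and Atp5o and Atp5h had 0.21 and 0.24. The lowest complex IV gene, named after its value was seen, was Cox6a2, the heart and muscle form of a subunit, at -3.02 (SE 2.16, adjusted p = 0.87). It was at 0 counts in 2 of the 5 Ctrl 4C mice, 5.33 higher on the log2 scale in muscle-rich mice, and at 3.69 without them. Atp5g1, an ATP synthase ring gene, had -1.48 at counts of 8.7 to 98.6 and was 1.58 higher on the log2 scale in muscle-rich mice, with 1.04 without them.

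These values moved with transcript length and with 2 control mice. Over the 13786 genes with a length in GENCODE M21, the median interaction was 0.11 in the shortest 20% of transcripts, of which 66.9% lay above 0, and -0.08 in the longest 20%, of which 38.8% did. The median longest transcript was 944.5 bases for complex I genes and 659 for complex IV genes. The difference between the shortest and the longest 20% was 0.30 and 0.44 on the log2 scale in Ctrl RT mice 1 and 6, and between -0.15 and 0.15 in all other mice. Without these 2 mice the medians were 0.01 for complex I, 0.00 for complex IV, 0.03 for complexes II and III and -0.01 for ATP synthase, and the positive subunit genes named above had values from 0.046 for Uqcrh to 0.16 for Sdhd. Without Ctrl RT mouse 6 alone the 4 medians were 0.10, 0.12, 0.091 and 0.071. With the trend on length removed in each mouse, they were 0.09, 0.10, 0.08 and 0.04. Cytosolic ribosomal protein genes, also short, had 0.13, with 73 of 81 above 0, and -0.04 without the 2 mice. The ISR list had -0.34 without these mice and -0.40 with the trend removed. Single genes moved either way without the 2 mice. Slc38a2 (-0.29), Gpt2 (-0.47) and Letm1 (-0.18) came nearer to 0. Slc7a1 (-1.34), Fgf21 (-3.03) and Asns (-0.41) went further from it.

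**Figure D5:**
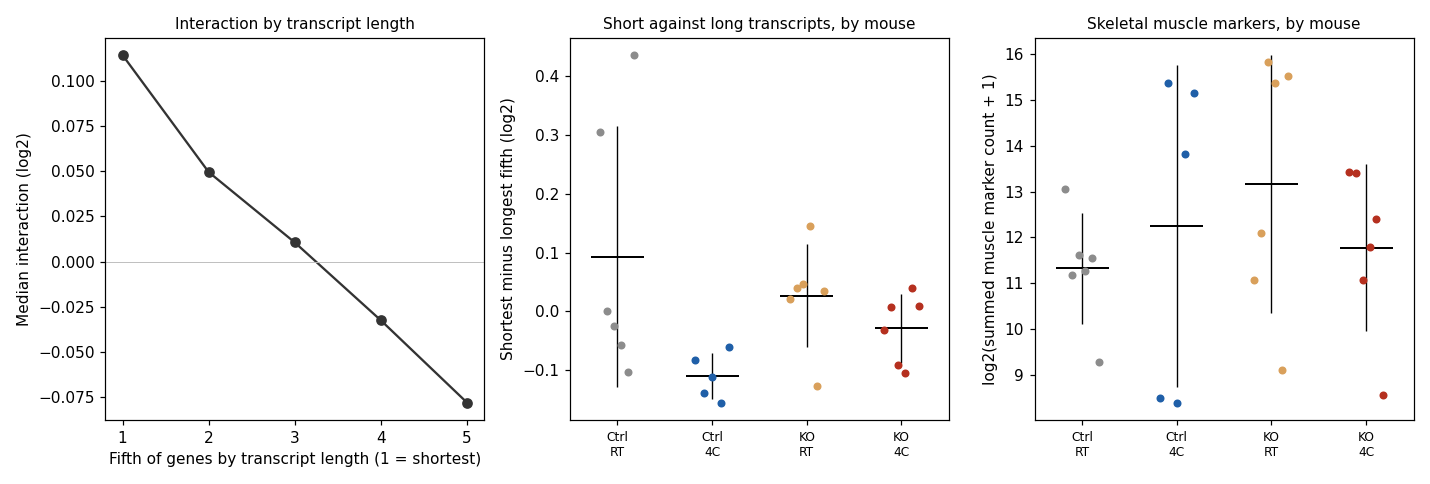
Left, median interaction (log2) of the genes in each of 5 equal classes by transcript length, falling from 0.11 to -0.08. Middle, mean log2 deviation of the shortest minus the longest class in each mouse, where 2 Ctrl RT mice at 0.30 and 0.44 lie above all others. Right, log2 of the summed normalized count of 20 skeletal muscle markers plus 1 in each mouse; points are mice and bars the mean and SD.

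Other genes with the smallest p were spread over families. S1pr5, a sphingosine phosphate receptor, was lowered by cold in both genotypes, with log2 changes of -2.63 in controls and -1.23 in BAT-Mcu-KO. Its counts were 12.1, 9.11, 29.9, 18.4 and 16.8 in Ctrl 4C and 28.8, 41.9 and 63.5 (lowest, median, highest) in BAT-Mcu-KO 4C, with an interaction of 1.40 (SE 0.34, adjusted p = 0.70). Only the lowest BAT-Mcu-KO mouse fell within the control range. The histone variant gene H2afv (0.54) and N4bp2l1 (0.63) followed the same pattern of a smaller decrease, and Nupr1l (1.17) and Tarm1 (1.65) were lowered in controls (adjusted p = 2.9e-06 and 0.00033, limma) with -0.28 and 0.22 in BAT-Mcu-KO mice (adjusted p = 0.27 and 0.56). Vgll4, a cofactor of TEAD factors, had 0.75. On the negative side were Pdlim5 (-0.97), Jph1 (-1.87), which joins the surface and calcium store membranes of muscle, the myosin chaperone gene Unc45b (-0.69) and Extl1 (-3.22). Without the muscle-rich mice they had -0.17, -0.82, -0.29 and -1.10. Osgin2 (-0.89), the exchange factor gene Prex1 (-1.01) and RP23-287M3.2 (-2.58) completed, with Mthfd2, the 8 smallest p in that direction, with adjusted p = 0.70 for each of the 16.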

How the data were processed

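Brown fat RNA was made into Smart-seq2 libraries and sequenced in paired reads of 25 bases. Per the labels and the study's methods, the authors aligned reads to mm10 with STAR 2.4.0j, counted unique exonic reads without strand in HTSeq, kept genes with enough reads (every gene here had at least 9 in 6 mice) and deposited counts divided by DESeq2 size factors, a normalized signal. Whole reads were recovered from the steps of these values (100% whole within 0.01). The deposited fold changes and p-values of the authors' own comparisons were not used.

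The interaction was fitted on log2(value + 1) over 4 group means in all 23 mice with limma 3.58.1 (R 4.3.3, trended variance, Benjamini-Hochberg over 14651 genes). DESeq2 1.42.0 and edgeR 4.0.16 were run on the recovered reads, and the fits were tested on simulated data. Intervals and p-values measure the spread between mice. The parts described, the gene lists and the rules were chosen with earlier results of these data known. Lists in depth were those with the 6 lowest and 6 highest medians, with thermogenic, uniporter and ISR lists always included. Genes named were the 3 smallest p in each such list, the 8 smallest p in each direction and a short fixed list, and exceptions are stated. List medians carry no test. Gene positions are from GENCODE M21 (GRCm38). The 19 symbols that a spreadsheet turned into dates were not named.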

Additional observations from a re-analysis of the deposited data

Results flagged for a closer look

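Within the 4 groups, 376 sets of 5 or 6 mice were examined for a mouse far from its group (the gap to the nearest mouse divided by the group's range, on the log2 scale). Of these, 23 stood out, where chance gives about 1 in 20 sets. The total is thus near what chance gives, and sets from the same mice are not independent. Of list scores, the ER and plasma membrane calcium genes were low in Ctrl RT mouse 6 (-0.45 against -0.04 to 0.14, ratio 0.698), and complex I genes were high in Ctrl 4C mouse 1 (0.01 against -0.21 to -0.16, ratio 0.766). The same Ctrl 4C mouse 1 stood out for Cox5b (8380.3 counts against 5892 to 6406, ratio 0.763), Ndufc2 (ratio 0.793), Vgll4 (ratio 0.754) and Letm1 (ratio 0.728). It also stood out for Ppp1r15a (761 counts against 329 to 416, ratio 0.722), whose interaction was 0.49 without this mouse. Its library had the fewest reads, 7129271.

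Letm1 also stood out in BAT-Mcu-KO RT mouse 1 (6275 counts against 2510.3 to 3273, ratio 0.7104) and BAT-Mcu-KO 4C mouse 6 (2401 against 4845 to 7049, ratio 0.652). Mcu was lowest in BAT-Mcu-KO RT mouse 4 (15.2 counts against 36.2 to 42.4, ratio 0.842), and its interaction was -0.17 without that mouse. Gpt2 (ratio 0.672) and Kcnk3 (ratio 0.760) also stood out in that mouse. Trib3 was highest in Ctrl 4C mouse 5 (437 counts against 274 to 287, ratio 0.898).

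The remaining ratios in Ctrl RT were 0.668 for Unc45b and 0.658 for Extl1. In BAT-Mcu-KO 4C they were 0.791 for Kcnma1, 0.670 for Sdhd, 0.635 for Atp5o, 0.687 for Atp5h and 0.628 for Aars. In BAT-Mcu-KO RT they were 0.692 for Vars, 0.646 for Camk2b and 0.651 for Ppp1r15a.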

How the results depend on the processing

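The interaction called 0 genes under every alternative run except DESeq2 (28 genes) and leaving out Ctrl 4C mouse 1 (0 to 1 over the mice left out, the gene being Megf9, at -0.85 with adjusted p = 0.039, against -0.59 with adjusted p = 0.80 in all mice). Calls for cold ranged from 4630 to 6925 in controls, and those in BAT-Mcu-KO from 4261 to 6618. Without the muscle-rich mice, an alternative chosen after seeing the data like the muscle covariate, the removal of Ctrl RT mice 1 and 6 and the length trend, the medians were -0.052 for immediate early genes, -0.078 for thioesterases and -0.088 for thermogenic genes, and Acot12 (-0.12), Atp5g1 (1.04), Mcu (-0.044), Ucp1 (-0.088), Elmod2 (-0.70) and Slc38a3 (1.38), Cox6a2 (3.69), Got1 (0.26), Sesn2 (-0.30) and Nr4a3 (-0.51) changed sign. The median of potassium channels was -0.28 with a pseudocount of 10 and -0.27 with the muscle covariate. EGF and ERBB genes had -0.12 at a mean count of 50 or more. As means, EGF and ERBB genes had -0.086, amino acid transporters -0.63 and ISR genes -0.53. Complex I genes had 0.0079 without Ctrl RT mice 1 and 6. Mcu was -0.045 by DESeq2 and -0.040 by edgeR. With each mouse left out, values that crossed 0 ran from -0.17 to 0.14 for Mcu, from -0.40 to 0.068 for Dio2 and from -0.086 to 0.21 for Elmod2. The causes were not tested.

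A fit that took replicate numbers as a block called 0 genes for the interaction, and it called 6610 for cold in control mice and 6376 for cold in BAT-Mcu-KO mice, with an ISR median of -0.31. The numbers did not pair the mice: same-numbered mice correlated between -0.39 and 0.26, and the closest mouse of another group had the same number in 11 of 66 comparisons.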
